A study of Rattus norvegicus with 6 samples.

Results

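Caveolins and cavins build caveolae, the small flask-shaped pits of the plasma membrane, and 8 genes of this machinery were followed in rat intestinal epithelial cells depleted of Suz12, a subunit of the Polycomb repressive complex PRC2. The 8 genes were Cav1, Cav2, Cav3, Cavin1 (older name Ptrf), Cavin2 (older name Sdpr), Cavin3 (older name Prkcdbp), Ehd2 and Pacsin2. Every probe set annotated to exactly 1 of these symbols was taken, which gave 13 of the 31042 probe sets compared, for 7 of the 8 genes. No probe set was annotated to Cavin1, so it was not analysed here, and 0 probe sets held a family symbol together with others. The probe sets were picked by symbol alone, but the family itself was chosen on its measured log2 differences between the groups, which were known when it was put together. Its values in that comparison are therefore given as a description, with no p-value, and passing the threshold across the array is stated only as a fact about each probe set.

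The cells were IEC-6, a non-tumorigenic line from rat small intestine that resembles undifferentiated crypt cells. ShControl cells carried a lentivirus with a scrambled short hairpin RNA and ShSuz12 cells one with a hairpin against Suz12, and both were selected with puromycin and grown in DMEM with serum. Each group was 1 infected population, from which RNA of 3 independent experiments was hybridized to 3 Affymetrix rat genome arrays, 6 arrays in all. The hairpin was directed at this stretch of the Suz12 transcript, shown because it defines the groups.
shRNA target in Suz12: gctgacaatcaaatgaatcat
Suz12 had log2 values from 8.45 to 8.77 on the ShControl arrays and from 5.77 to 5.91 on the ShSuz12 arrays. The values are log2 signals that the authors normalized with RMA, which is meant to put the arrays on 1 scale. A small offset between the groups remained, with array medians of 6.15 to 6.17 in ShControl and 6.26 to 6.27 in ShSuz12. A probe set passed when its adjusted p from limma, over all 31042 probe sets, was under 0.05, and it was called when it also differed by at least 2-fold. Precision is limited by having 3 arrays a group, and less RNA in every cell cannot be told apart from fewer cells that express a gene.

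Caveolin-1 and caveolin-2 form the oligomers that coat the pit, and caveolin-3 takes their place in striated muscle. Cavins are cytoplasmic coat proteins: cavin-1 is needed for caveolae to form, cavin-2 helps to bend the membrane and cavin-3 adjusts how caveolae move and signal. Ehd2 is an ATPase that assembles around the neck and holds the pit at the surface, and Pacsin2 is an F-BAR protein that bends the membrane there. Caveolae are abundant in fibroblasts, endothelium, fat and muscle cells, where they buffer membrane tension and take part in signaling and lipid uptake.

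Cavin2 was the member with a large difference, at 34.1% of its ShControl signal in ShSuz12 cells. Smaller falls that passed, from 1.14-fold to 1.44-fold, were present at 7 probe sets of Cav1, Cav2, Cavin3, Ehd2 and Pacsin2. Cav3 was higher at a low signal, and the probe sets of Cav2 did not move together. Of the 13 probe sets, 1 was called lower (0.396% of all probe sets were called lower) and 0 were called higher (3.1% of all), both with limma, whether or not p was adjusted, and with the methods' t-test. Without the 2-fold limit, 8 passed as lower (19.5% of all) and 1 as higher (14.8% of all), and 4 did not pass. The 3 ShSuz12 values lay below the 3 ShControl values at 8 probe sets (28.1% of all) and above them at 2 (19.4% of all), and the groups overlapped at 3. The median log2 fold change of the 13 was -0.27, against -0.05 for all probe sets. Of the 13, 9 lay above the 80th percentile of the array by their mean, a limit set after the values were seen. Of these, 7 passed as lower, where 34.2% of the 6119 probe sets above that percentile did. Cav1 and Pacsin2 count with 2 probe sets each among the 7. As the family was chosen on these differences, this share is a description and not a test.

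**Figure D1:**
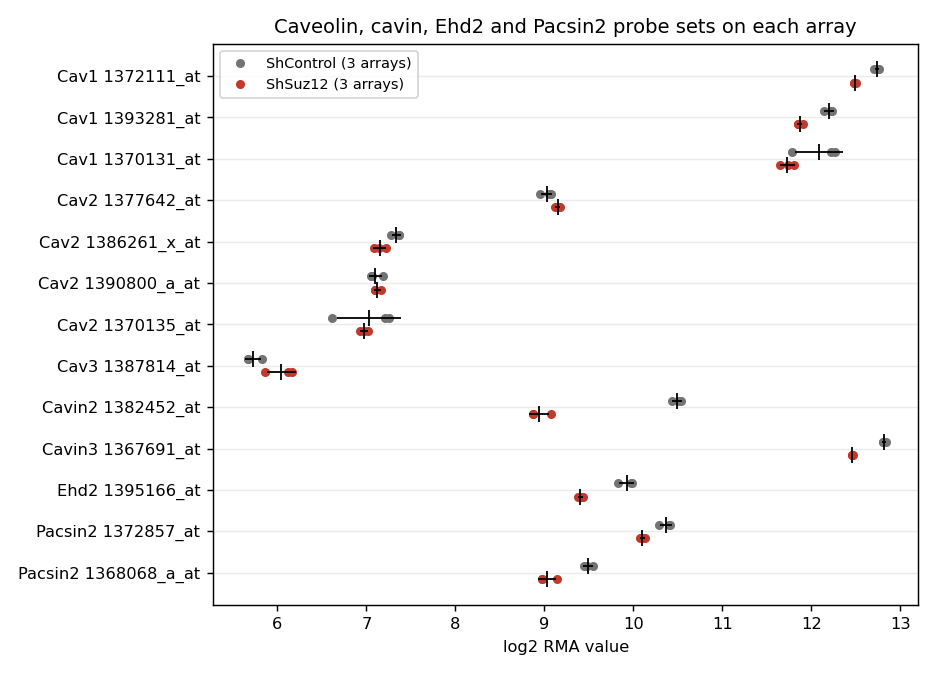
Log2 RMA value (horizontal axis) of the 13 probe sets on each array, grey for the 3 ShControl arrays and red for the 3 ShSuz12 arrays, with vertical ticks for the means and horizontal bars for the SD (n = 3). Cavin2 shows the widest gap, from a mean of 10.49 to 8.94, and the wide ShControl bars at Cav1 1370131_at and Cav2 1370135_at come from 1 array that lies below the other ShControl arrays.

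Cavin2, also known as serum deprivation response protein, had log2 values of 10.43, 10.54 and 10.50 on the ShControl arrays and of 8.87, 8.87 and 9.07 on the ShSuz12 arrays. The groups were separated by a gap of 1.36, which is wider than the spread within either of them. The mean went from 10.49 ± 0.05 to 8.94 ± 0.12 (SD, n = 3 each), a log2 fold change of -1.55 (standard error 0.07), a signal 2.93-fold lower. Ordered by log2 fold change, Cavin2 was the 25th lowest of all 31042 probe sets. Its probe set lay at percentile 94.4 of the ShControl arrays, which means that it was brighter than 94.4% of the probe sets on them, and at percentile 83.0 of the ShSuz12 arrays, so the signal stayed well above the dim end of the array.

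Cavin3, first described as a binding protein of protein kinase C delta, fell far less. It had log2 values of 12.80, 12.80 and 12.84 on the ShControl arrays and of 12.46, 12.46 and 12.46 on the ShSuz12 arrays. The log2 fold change was -0.36 (standard error 0.05), a fall to 78.1% of the ShControl signal, with no overlap between the groups. The SD of the ShSuz12 arrays was 0.0034, the smallest of the family. That spread is of the ShSuz12 values alone, as the ShControl SD was 0.024 and the difference had the standard error given above. The fall was 1.28-fold where that of Cavin2 was 2.93-fold.

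Of the proteins at the neck and rim of the pit, Ehd2 showed the larger fall. Its log2 values were 9.97, 9.83 and 9.98 on the ShControl arrays and 9.37, 9.43 and 9.41 on the ShSuz12 arrays, without overlap. The log2 fold change was -0.52 (standard error 0.06), which left 69.5% of the ShControl signal. Pacsin2 fell at both of its probe sets. At 1372857_at the log2 values were 10.29, 10.40 and 10.41 on the ShControl arrays and 10.07, 10.13 and 10.09 on the ShSuz12 arrays. The other, 1368068_a_at, had 9.55, 9.48 and 9.45 against 8.98, 9.14 and 8.97. Neither showed an overlap, and the log2 fold changes were -0.27 (standard error 0.06) and -0.46 (standard error 0.07), so the direction was shared and the size was not.

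**Figure D2:**
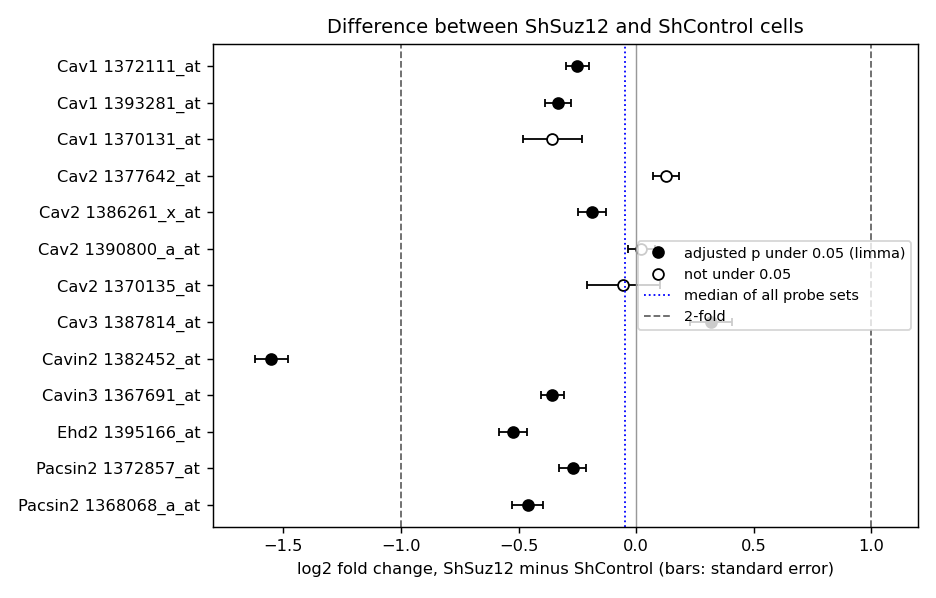
Log2 fold change, ShSuz12 minus ShControl (horizontal axis), of the 13 probe sets with standard errors from limma, filled where the adjusted p was under 0.05. The dotted line is the median of all probe sets (-0.05) and the dashed lines mark 2-fold, which Cavin2 (-1.55) alone among the 13 passes.

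Cav1, the main structural protein of caveolae outside muscle, had bright probe sets that were modestly lower in ShSuz12 cells. At 1372111_at the log2 values were 12.76, 12.75 and 12.71 on the ShControl arrays and 12.50, 12.48 and 12.48 on the ShSuz12 arrays. At 1393281_at they were 12.24, 12.14 and 12.22 against 11.91, 11.85 and 11.85. Both fell without overlap, with log2 fold changes of -0.25 and -0.33 (standard error 0.05 each), to 84.0% and 79.4% of the ShControl signal. The third, 1370131_at, had 12.26, 11.78 and 12.22 on the ShControl arrays and 11.81, 11.74 and 11.65 on the ShSuz12 arrays, so ShControl replicate 2 lay within the ShSuz12 range. Its log2 fold change of -0.36 had a standard error of 0.12 and did not pass, while without ShControl replicate 2 it was -0.51 (standard error 0.07) and passed. With all arrays kept it also passed with the 40th and 60th percentile filters, after median subtraction and with a replicate block. It did not pass with the methods' t-test, after a second quantile normalization or with trended robust eBayes.

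Cav2, the partner of caveolin-1 in the coat, had 4 probe sets that did not share a direction. The brightest, 1377642_at, had log2 values of 9.05, 9.07 and 8.95 on the ShControl arrays and of 9.16, 9.12 and 9.17 on the ShSuz12 arrays, a log2 fold change of 0.13 (standard error 0.06) that did not pass although the groups did not overlap, and that passed as higher after a second quantile normalization, with the 60th percentile filter and with the methods' t-test before adjustment. At 1386261_x_at the values were 7.28, 7.37 and 7.36 against 7.22, 7.14 and 7.08, and this probe set fell, with a log2 fold change of -0.19 (standard error 0.06). It no longer passed with the methods' t-test after adjustment, with a replicate block, or without any 1 of 4 arrays (ShControl replicates 2 and 3, ShSuz12 replicates 2 and 3). The suffix x marks probe sets in which some probes can also bind other transcripts. Within each array, the brightest probe set exceeded 1386261_x_at by 1.59 to 1.77 on the ShControl arrays and by 1.94 to 2.09 on the ShSuz12 arrays, so the disagreement of 0.31 between them appeared on all 3 ShSuz12 arrays.
At 1390800_a_at, which is annotated to the same transcript record as the brightest, the log2 fold change was 0.02 (standard error 0.06) with overlapping groups. The last, 1370135_at, had 7.26, 6.61 and 7.21 on the ShControl arrays and 7.02, 6.97 and 6.92 on the ShSuz12 arrays. Its log2 fold change was -0.05 (standard error 0.16), and -0.26 (standard error 0.06) without ShControl replicate 2, when it passed.
On that array, ShControl replicate 2, 352 probe sets (1.13%) lay at least 0.4 below both other ShControl arrays, against 33 to 59 such probe sets on each of the other arrays. Of the family, 1370131_at of Cav1 and 1370135_at of Cav2 were among the 352. The part of this array in the values of these probe sets is what the values without it show, and the other 11 probe sets were not among those 352.

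**Figure D3:**
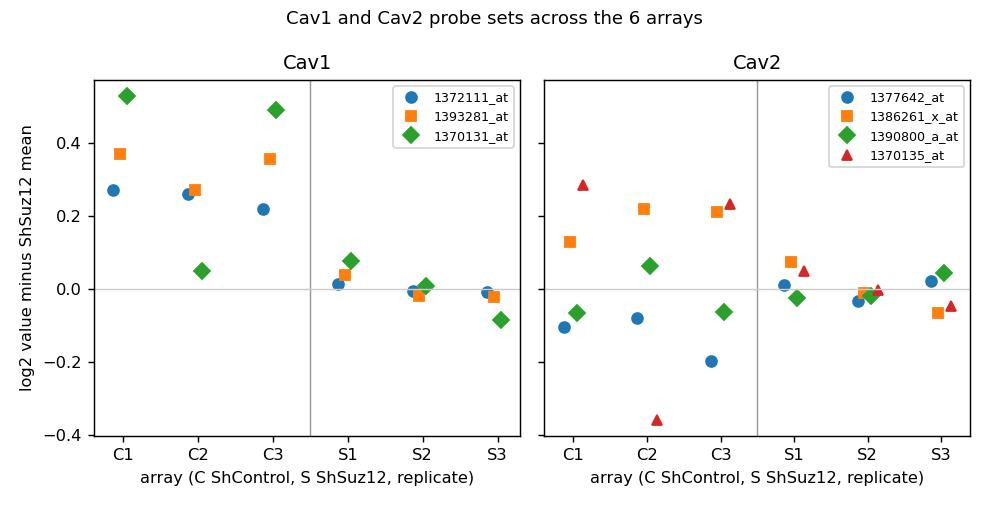
Log2 value minus the ShSuz12 mean of the same probe set (vertical axis) for the 3 probe sets of Cav1 and the 4 of Cav2, on ShControl arrays C1 to C3 and ShSuz12 arrays S1 to S3. At C2, 1370131_at and 1370135_at lie far below C1 and C3, while the other probe sets of Cav1 stay above all of their ShSuz12 values.

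Cav3, the muscle caveolin, had log2 values of 5.83, 5.67 and 5.67 on the ShControl arrays and of 6.16, 5.86 and 6.11 on the ShSuz12 arrays. The groups were parted by no more than 0.03. Its log2 fold change was 0.32 (standard error 0.09), and the probe set lay at percentiles 44.6 and 47.4, below the middle of the array in both groups. It no longer passed after each array's median was subtracted, after a second quantile normalization, with the methods' t-test after adjustment or without any 1 of 4 arrays (ShControl replicates 2 and 3, ShSuz12 replicates 1 and 3). Markers of muscle were followed on the same arrays. Of 13 measured, 8 lay below the 40th percentile in both groups, 2 passed as higher (17.1% of all genes) and 2 as lower (23.3%). Myh11, the smooth muscle myosin, and Des, the muscle intermediate filament, rose by 0.65 and 0.36 on the log2 scale, while Acta2, smooth muscle actin, and Tnnc1, a troponin, had falls of -0.66 and -0.51 (adjusted p = 0.00153, 0.00656, 4.22e-05 and 0.00139 from limma). Myod1 and Myog, which define skeletal muscle cells, had log2 fold changes of 0.02 each (percentiles 3.08 and 39.6 of the ShControl arrays). The part of muscle markers in the value of Cav3 was not tested.

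Caveolae mark several cell types, so markers of these and of intestinal epithelium were set beside the family. Of 16 fibroblast markers, all measured, 7 were called higher (3.82% of all genes) and 0 lower (0.422%) by limma with or without adjustment. Their mean log2 level went from 8.11 to 8.16 on the ShControl arrays to 9.23 to 9.24 on the ShSuz12 arrays. Postn, a matricellular protein, rose by 3.48, Lum, a keratan sulfate proteoglycan, by 2.46, and the collagens Col1a2 and Col3a1 by 2.34 and 2.33 (adjusted p = 2.26e-08, 1.51e-05, 6.32e-08 and 2.08e-07 from limma). The fibroblast markers Pdgfra, Thy1 and Fap had log2 fold changes of 0.06, 0.16 and -0.07 and lay at percentiles 32.0, 32.4 and 20.6 of the ShControl arrays. Vim was at percentile 99.9 in both groups. Of 20 measured markers of intestinal epithelium, 11 lay below the 40th percentile in both groups, Epcam, Krt18, Vil1 and Muc2 included.
Cdh1, the epithelial cadherin, was at percentile 99.3 of the ShControl arrays and fell by 0.76 on the log2 scale, and Krt8, a keratin, fell by 0.41 (adjusted p = 6.38e-05 and 9.64e-04 from limma). Cdx2 and Krt19, at percentiles 41.5 and 27.3 of the ShControl arrays, were called higher, by 1.56 and 1.19 (adjusted p = 4.75e-05 and 1.21e-05). They were 2 of the 20 epithelial markers (3.82% of all genes), and 0 were called lower (0.422%). Without the 2-fold limit, 3 passed as higher (17.1% of all genes), Cdh17 (0.38) included. Those that passed as lower numbered 2 (23.3%), Cdh1 and Krt8. Percentiles compare different probes and no detection calls were used, so a low percentile does not show that a marker was absent.
Of 12 endothelial markers 7 lay below the 40th percentile in both groups. Erg was the 1 called higher (1.34, adjusted p = 2.34e-05 from limma), where 3.82% of all genes were. Without the 2-fold limit 4 passed as higher (17.1% of all genes) and 0 as lower (23.3% of all genes). Besides Erg these were Kdr (0.78), Flt1 (0.65) and Egfl7 (0.27). Of 9 adipocyte markers 7 lay below the 40th percentile in both groups and none passed the adjusted p, with log2 fold changes from -0.18 to 0.06. Of the 16 fibroblast markers 10 passed as higher (17.1% of all genes), opposite to the falls of Cav1, Cavin2, Cavin3, Ehd2 and Pacsin2. Those that passed as lower numbered 0 (23.3% of all genes), and 6 did not pass. The part of these markers in the falls was not tested. Apart from the called genes, the markers named here were picked after their values were seen.

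Genes that work with caveolae but are not part of the family were followed in 5 lists drawn up from textbook roles. Of 110 genes 93 were measured, each by its brightest probe set. By limma 5 were called higher (3.82% of all 14217 genes) and 0 lower (0.422% of all), whether or not p was adjusted, and the methods' t-test gave the same counts. Without the 2-fold limit, 23 passed as higher (17.1% of all) and 12 as lower (23.3% of all). Their median log2 fold change was -0.01, against -0.05 for all genes, and the medians of the 5 lists ran from -0.03 to 0.06. The family was chosen on its differences, so its lower median beside these lists is a description and not a test.

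In the list of neck, F-BAR and dynamin genes, 14 of 17 were measured. None reached 2-fold, so none was called whatever the test (of all genes, 3.82% were called higher and 0.422% lower). Without the 2-fold limit, 2 passed as higher (17.1% of all genes) and 3 as lower (23.3%). Ehd1, a relative of Ehd2 in endosome recycling, fell by 0.31 on the log2 scale (adjusted p = 0.00185 from limma), while Ehd3 and Ehd4 had values of 0.06 and -0.16 and did not pass. Pacsin3, a relative of Pacsin2, rose by 0.18 (adjusted p = 0.0334), and Pacsin1 had a value of -0.01. Dynamin-1 (Dnm1), which cuts vesicles from the membrane, rose by 0.88 (adjusted p = 1.95e-04), while the widespread dynamin-2 (Dnm2) had a value of -0.03. The other falls in this list were those of Snx9 (-0.44) and Fnbp1 (-0.35), both of which bend membranes during endocytosis. These genes are named as relatives of the family or as the few that passed, after their values were seen.

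Flotillins form membrane domains of their own without caveolins. Of 15 measured genes of flotillins and other raft proteins, none reached 2-fold, so none was called whatever the test. Of all genes, 3.82% were called higher and 0.422% lower. Without the 2-fold limit, 3 passed as higher (17.1% of all genes) and 1 as lower (23.3%). Flot1 rose by 0.37 on the log2 scale and Flot2 had a value of 0.01. The other higher genes were Pllp (0.76), a myelin-associated membrane protein, and Cmtm3 (0.50), and the lower gene was Mal2 (-0.62), which acts in apical transport of epithelial cells.
The clathrin coat drives the other main route of uptake. Of 25 measured genes 2 were called higher: Dab2, a clathrin adaptor for lipoprotein receptors and integrins, rose by 1.70 (adjusted p = 2.98e-07 from limma), and Snap91, a neuronal clathrin assembly protein, by 1.46 at its brightest probe set and had -0.34 at its other. The clathrin chains Cltc, Clta and Cltb had log2 fold changes of 0.11, 0.14 and -0.06, and none of them passed.

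Of 23 measured receptors and signaling proteins that have been reported in caveolae, 2 were called higher (3.82% of all genes) and 0 lower (0.422%). Without the 2-fold limit, 7 passed as higher (17.1%) and 2 as lower (23.3%). Pdgfrb and Egfr, receptor tyrosine kinases, had log2 rises of 1.66 and 1.57 at their brightest probe sets (adjusted p = 9.42e-06 and 1.71e-05 from limma). The probe sets of Pdgfrb differed in size, from 0.49 to 1.66, and those of Egfr in direction as well, from -0.12 to 1.64. The endothelial nitric oxide synthase Nos3, which caveolin-1 inhibits, lay at percentile 13.1 of the ShControl arrays and had a value of -0.12. Of 16 measured genes for lipids of the caveolar membrane, 1 was called higher (3.82% of all genes) and 0 lower (0.422%). Without the 2-fold limit, 6 passed as higher (17.1%) and 3 as lower (23.3%). The called gene was Abca1, a cholesterol exporter, which rose by 1.35 and by 1.08 or more at each of its 4 probe sets.

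**Figure D4:**
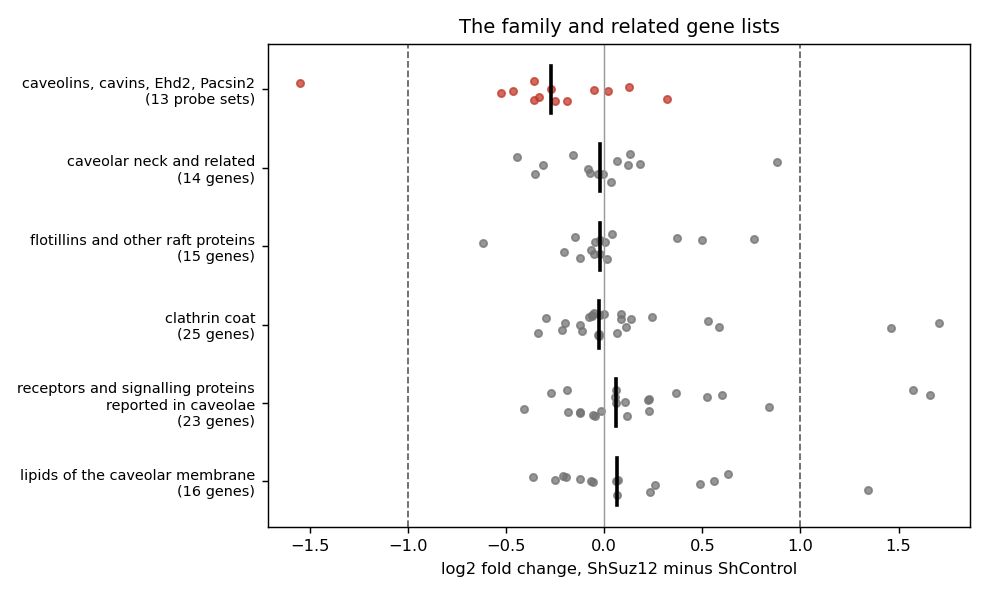
Log2 fold change, ShSuz12 minus ShControl (horizontal axis), of the 13 family probe sets in red and of the measured genes of 5 related lists in grey, 1 point per probe set or gene with black bars for medians and dashed lines at 2-fold (vertical scatter within a row has no meaning). The family median is -0.27, the medians of the other lists run from -0.03 to 0.06, and the points beyond 2-fold on the higher side belong to clathrin, receptor and lipid genes. The family was chosen on these differences, so its lower median is a description.

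The genes most like Cavin2 over the 6 arrays were found among 14217 genes by the Euclidean distance between profiles, after each gene's own ShControl mean was subtracted. They were Hey2, a Notch target, at a distance of 0.11, Deptor, an inhibitor of mTOR, at 0.19, Lurap1l at 0.20, Palmd at 0.25 and Inhbb, a subunit of activin and inhibin, at 0.26. Their log2 fold changes ran from -1.51 for Hey2 to -1.45 for Inhbb, and only 15 genes lay within a distance of 0.5 of Cavin2. The same measure for Cav1 gave Rtf1, Pura, Sulf2, Atic and Cog8, at distances from 0.03 to 0.04, with log2 fold changes from -0.26 to -0.25. Within a distance of 0.5 of Cav1 lay 8483 of the 14217 genes, so short distances to it were common. The measure mostly reflects the difference between the groups.

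PRC2 acts largely at promoters rich in CpG dinucleotides, so the promoter windows of the family were read from RefSeq (build GRCr8, 300 bases from 250 before to 50 after the start). The table held 8 windows for 7 of the genes, Cav1 having 2 starts. Cavin2 had 5 CpG in its window and Pacsin2 had 4, Cav3 had 9, Cav1 15 and 18, Ehd2 18, Cavin1 20 and Cav2 24, while the median of all 33469 windows was 7. Genes that fell thus had windows on both sides of that median, Cavin2 and Pacsin2 below it and Ehd2 and Cav1 above it. 5 motifs were searched on both strands of the 300 bases. GGAATG, the core of the TEAD element, was in 2 of the 8 windows, Cavin2 and Cav3 (14.2% of all windows), GGGCGG, the GC box, in 4 (33.1%), CCAAT in 3 (37.5%), TATAAA in 1 (14.2%) and the CArG box in 0 (1.64%). In the bases shown no match overlaps another. A match is a description of the letters and not a binding site.
The 250 bases before the start are shown for Cavin2 and Ehd2, the genes with the largest falls, and for Cav3, the gene on the higher side. Capitals mark GGAATG in Cavin2 and Cav3, and CCGCCC, the GC box read on the other strand, in Ehd2. They lie at chr9:57806025-57806274 on the minus strand, chr1:85786944-85787193 on the minus strand and chr4:147137743-147137992 on the plus strand.
Cavin2 promoter: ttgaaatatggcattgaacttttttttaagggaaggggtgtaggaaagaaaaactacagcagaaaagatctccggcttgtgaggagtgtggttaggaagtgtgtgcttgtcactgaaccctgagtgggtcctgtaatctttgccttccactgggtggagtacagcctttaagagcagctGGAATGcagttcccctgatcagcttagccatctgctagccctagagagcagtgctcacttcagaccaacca
Ehd2 promoter: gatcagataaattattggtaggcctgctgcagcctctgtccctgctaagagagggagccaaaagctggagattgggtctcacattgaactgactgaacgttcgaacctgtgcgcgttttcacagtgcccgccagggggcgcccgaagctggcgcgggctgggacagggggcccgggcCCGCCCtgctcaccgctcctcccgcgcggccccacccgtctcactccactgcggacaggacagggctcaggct
Cav3 promoter: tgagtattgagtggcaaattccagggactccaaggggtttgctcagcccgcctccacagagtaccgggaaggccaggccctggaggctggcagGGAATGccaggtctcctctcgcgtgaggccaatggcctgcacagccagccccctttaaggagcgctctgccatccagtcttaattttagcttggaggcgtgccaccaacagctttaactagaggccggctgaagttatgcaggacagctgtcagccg
GGAATG began 71 bases before the start in Cavin2 and 157 bases before it in Cav3. The part of these letters in the value of either gene was not tested.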

How the data were processed

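RNA of 3 ShControl and 3 ShSuz12 samples was labelled and hybridized to Affymetrix rat genome arrays. The deposited values are log2 signals that the authors background-corrected, normalized and summarized per probe set with RMA, so small differences can be compressed. No depth applies to arrays. Control probe sets (57 of 31099) were left out, and symbols came from the GEO platform annotation, in which 20826 probe sets have 1 symbol, 436 several and 9780 none listed. Groups were compared with limma 3.58.1 in R 4.3.3 (lmFit, eBayes, all 6 arrays, no covariate) with Benjamini-Hochberg adjustment over 31042 probe sets, after the code was tested on simulated data. A call needed an adjusted p under 0.05 and a 2-fold difference. The family, the lists and the tests were chosen with earlier results of these data known. The rule for named genes took all family probe sets, Suz12, up to 4 called genes per list by size of difference, and the 5 nearest profiles of Cavin2 and Cav1. A gene in a list was represented by its brightest probe set. Alternatives were the methods' t-test, filters at the 40th and 60th percentiles, median subtraction, a second quantile normalization, trended robust eBayes, a replicate block, leaving out each array, a 1.5-fold limit and averaging the probe sets of each gene. The p-values measure the spread between cultures of 1 population per group, not between infections.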

Additional observations from a re-analysis of the deposited data

How the results depend on the processing

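The call of Cavin2 held under every alternative, with log2 fold changes from -1.65 to -1.51, and no other family probe set reached 2-fold on leaving out any array. Family probe sets that passed as lower numbered 7 to 9 without 1 array. Those that passed as higher numbered 1 with limma, 0 with the methods' t-test after adjustment, 2 without adjustment, 0 after median subtraction and 0 to 1 without 1 array. Over all probe sets, 961 were called higher and 123 lower, 556 higher with the 60th percentile filter, 194 lower after median subtraction, and 1950 higher and 731 lower at 1.5-fold. Without 1 array these were 943 to 974 and 119 to 130. Related genes called higher numbered 10 at 1.5-fold and 3 when the probe sets of each gene were averaged, where Snap91 (0.56) and Pdgfrb (0.88) were under 2-fold, and 1 was lower at 1.5-fold. Without 1 array these stayed at 5 and 0.

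Of the 4 Cav2 probe sets 1377642_at and 1386261_x_at kept their sign under every alternative (0.026 to 0.17 and -0.29 to -0.15), and the other 2 did not. 1390800_a_at had 0.02 at first, but -0.079 after median subtraction, -0.011 after second quantile normalization, -4.6e-04 without ShControl replicate 1 and -5.5e-04 without ShSuz12 replicate 3, the range without 1 array ending at 0.064. 1370135_at had 0.062 without ShControl replicate 1, 0.036 without ShControl replicate 3 and -0.26 without ShControl replicate 2. Cav2 as the mean of its probe sets had -0.023, against 0.13 at the brightest. Median subtraction moved the median of all probe sets by -0.10 and that of the family to -0.37. The cause of these differences was not tested. Of 181 single fold changes under alternatives, 153 kept direction and side of the threshold.

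Samples with the same replicate number did not deviate together (r of 0.017, -0.042 and -0.064 across probe sets). Such a check finds no shared effect of the number, but it cannot exclude that the samples were paired by experiment. With the replicate block 962 probe sets were called higher and 123 lower, and 8 family probe sets passed as lower and 1 as higher. Cav1 1370131_at passed under it and Cav2 1386261_x_at (-0.19) did not. With 3 arrays per group and 1 infected population each, smaller differences and differences between infections are beyond these data.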

Other observations

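The genes next to the family on the chromosome were read as values. Cav2 and Cav1 lie between Tes, a focal adhesion protein, and Met, the receptor of hepatocyte growth factor, in the RefSeq order of genes (GRCr8). Tes rose, with a log2 fold change of 0.67 and an adjusted p = 3.48e-05 by limma, opposite to the direction of the Cav1 probe sets, and Met had a value of 0.23 (adjusted p = 0.104). Beside Cavin3, Smpd1, the acid sphingomyelinase, fell by 0.19 (adjusted p = 0.0262) and Cckbr, a gastrin receptor, had -0.21 (adjusted p = 0.0596). The neighbours of Ehd2, Nop53 and Bicra, had 0.07 and -0.14, and those of Cav3, Ssuh2 and Oxtr, had -0.11 and -0.12. Those of Pacsin2, Arfgap3 and Ttll1, had -0.0013 and -0.09. Beside Cavin1, which had no annotated probe set, Stat3, a transcription factor of cytokine signaling, rose by 0.97 (adjusted p = 5.56e-05 by limma) and Atp6v0a1 had 0.09. The neighbours of Cavin2 had no probe set annotated to them alone.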
